A study of Mus musculus with 6 samples.

Results

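Among the 25078 genes in the RPKM table of midnolin knockdown and control Hepa1-6 cells, 54 were close to silent in the controls and clearly expressed in every knockdown library, and 53 of them are counted here, 52 of these with their values. Genes were selected on measured values: RPKM (reads per kilobase of exon, scaled to library size) was under 0.3 in both scramble libraries and over 2 in all 3 knockdown libraries. The difference between scramble and knockdown is therefore the selection itself and is given as a description, without a test. Of the 12693 genes under 0.3 RPKM in both scramble libraries, the 54 were 0.425%. By RefSeq the 53 genes were 46 protein-coding genes, 3 long noncoding RNAs, 3 transcribed pseudogenes and 1 gene (Klra18) without an entry.

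Hepa1-6 is an established mouse hepatoma line from the C57/L strain. Parental cells (wt, 1 library) received no vector, scramble cells (scr, 25-2 and 50-1) were transduced with lentivirus carrying a scramble vector, and knockdown cells (25-3, 50-2 and 50-5) with lentivirus carrying a midnolin shRNA vector. Both transduced groups went through puromycin selection and limiting dilution, so their lines descend from single cells, whereas wt is labelled as untreated. The labels do not explain 25 and 50, nor say whether libraries of a group are separate clones, and the study's text speaks of a pair of sequenced knockdown clones, so libraries may share a clone. Therefore p-values measure the spread between these libraries only, and clone differences and midnolin loss cannot be told apart within a library. Midnolin is a nuclear protein known to bring proteins to the proteasome without ubiquitin, among them transcription factors of the immediate early genes. A differentiated cell keeps most genes of other lineages silent, commonly at promoters poor in CpG, whereas promoters of housekeeping genes usually lie in CpG islands. In bulk RNA, a few cells with a gene fully on and all cells with a low level cannot be told apart.

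Libraries held 25586301 counts in wt, 28782355 and 29764550 in scr and 30833140 to 33119710 in knockdown, and 10639 to 10747 genes were over 1 RPKM in each. Midn, the targeted gene, was at 60.5 RPKM in wt, 59.6 and 50.8 RPKM in scr and 20.3, 21.8 and 22.1 RPKM in knockdown (edgeR, log2 fold change -1.38, SE 0.13, adjusted p = 0.00777). Of 11577 genes tested between 3 knockdown and 2 scr libraries, 5.40% were called higher and 5.23% lower, 10.6% in all, at an adjusted p below 0.05 and a fold change of at least 1.5. All 53 described genes were called higher, which the selection made likely. With 1 knockdown library left out, 45 (without 25-3), 37 (without 50-2) and 44 (without 50-5) were called higher. Precision is limited at the low end, because scr counts per gene were 0 to 38 and 19 of the 53 genes had at most 3 counts in each scr library. For a gene with 1 kb of exon, 3 counts correspond to 0.102 and 0.105 RPKM in the scr libraries, so most control values rest on a few reads.

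The genes together took 0.00374% of counts in wt, 0.00110% and 0.000974% in scr and 0.133%, 0.144% and 0.190% in knockdown. Their summed level was 16.7 RPKM in wt, 4.25 and 3.83 RPKM in scr and 567, 640 and 747 RPKM in knockdown. Mean knockdown level ranged widely, with 9 genes at 20 RPKM or more, 8 from 10 to 20, 16 from 5 to 10 and 20 from 2 to 5, around a median of 5.86 RPKM. Dctd, Epp13, Fcrl1, Gstk1 and Rhox2h had no count in either scr library, which allows up to 3 counts each by counting error alone. The plot of all genes by library shows this gap, which the selection fixed, and the position of wt, which it did not.

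**Figure D1:**
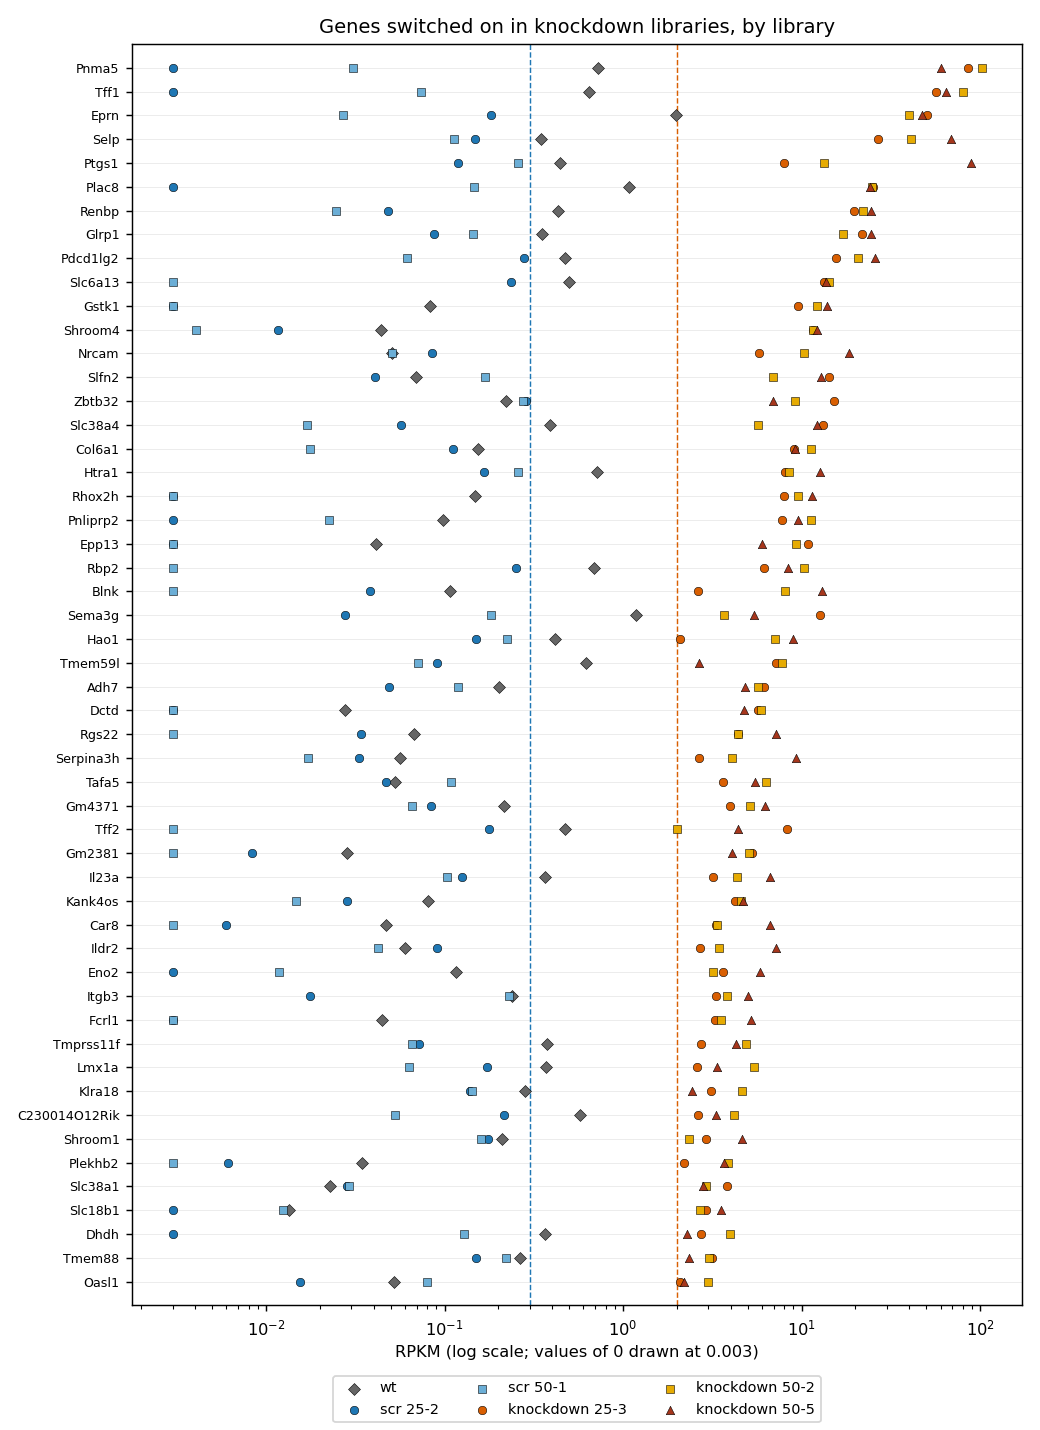
RPKM (log axis) of 52 of the 53 genes in each of 6 libraries, ordered by mean knockdown level, 1 point per library, with dashed lines at the selection limits of 0.3 and 2 RPKM. Knockdown points span 2.01 to 102 RPKM, and wt points lie mostly right of the scr points, with none over 2 RPKM.

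Pnma5, of the paraneoplastic Ma antigen family derived from retrotransposon Gag genes, had the highest mean (chromosome X, 73033981 to 73037103, minus strand). Its level was 0.721 RPKM in wt, 0 and 0.0307 RPKM in scr and 85.0, 102 and 60.5 RPKM in knockdown 25-3, 50-2 and 50-5. The same order of libraries is kept for all values that follow. Tff1 encodes a trefoil peptide secreted with gastric mucus (chromosome 17, 31161396 to 31165053, minus strand) and was at 0.642 RPKM in wt, 0 and 0.0734 RPKM in scr and 56.7, 80.5 and 64.6 RPKM in knockdown. The long noncoding RNA Eprn (chromosome 13, 73344665 to 73347384, minus strand) was at 1.97 RPKM in wt, 0.182 and 0.0269 RPKM in scr and 50.6, 40.1 and 47.5 RPKM in knockdown. Its parental level, from 67 counts, was the highest wt level of the 53 genes. For these 3 genes every knockdown library exceeded 40 RPKM.

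To show what kind of start sites these genes have, promoter windows of 4 of them are printed, Pnma5 and Eprn as genes poor in CpG and Shroom4 and Tafa5 as genes rich in it. Each window is RefSeq sequence of build GRCm38.p6, from 250 bases before to 50 bases after the annotated start, 5′ to 3′ on the strand of the gene, with every CG in capitals. The windows lie at chrX:73037054-73037353, minus strand (Pnma5), chr13:73347335-73347634, minus strand (Eprn), chrX:6399782-6400081, plus strand (Shroom4) and chr15:87544049-87544348, plus strand (Tafa5). They hold 1, 2, 18 and 56 CG dinucleotides.
Pnma5: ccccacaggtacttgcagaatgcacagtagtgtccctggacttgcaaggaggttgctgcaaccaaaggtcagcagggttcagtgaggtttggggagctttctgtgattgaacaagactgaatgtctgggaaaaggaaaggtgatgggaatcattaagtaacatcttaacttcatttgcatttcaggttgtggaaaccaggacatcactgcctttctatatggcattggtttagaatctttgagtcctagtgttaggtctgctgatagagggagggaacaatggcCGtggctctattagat
Eprn: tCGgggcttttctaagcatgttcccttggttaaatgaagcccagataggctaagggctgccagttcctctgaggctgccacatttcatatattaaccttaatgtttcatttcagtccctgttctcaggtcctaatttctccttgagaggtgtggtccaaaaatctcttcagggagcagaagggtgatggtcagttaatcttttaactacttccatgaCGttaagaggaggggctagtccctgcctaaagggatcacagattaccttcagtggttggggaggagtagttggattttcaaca
Shroom4: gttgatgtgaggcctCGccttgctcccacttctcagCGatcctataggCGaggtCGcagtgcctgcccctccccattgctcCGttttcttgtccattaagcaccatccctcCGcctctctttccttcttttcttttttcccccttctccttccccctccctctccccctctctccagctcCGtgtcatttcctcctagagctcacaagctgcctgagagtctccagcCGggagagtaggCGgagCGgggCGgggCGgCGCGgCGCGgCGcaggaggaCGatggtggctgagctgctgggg
Tafa5: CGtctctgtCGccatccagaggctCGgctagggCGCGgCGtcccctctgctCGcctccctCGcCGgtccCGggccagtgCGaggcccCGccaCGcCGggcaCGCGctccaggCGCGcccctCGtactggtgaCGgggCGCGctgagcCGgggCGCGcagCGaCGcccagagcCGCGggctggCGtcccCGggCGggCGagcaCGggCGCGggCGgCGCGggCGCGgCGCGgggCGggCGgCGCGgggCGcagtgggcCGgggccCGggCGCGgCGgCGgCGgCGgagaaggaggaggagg

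A set of 12 genes is known from blood cells, platelets or immune signalling, with mean knockdown levels of 2.42 to 45.6 RPKM (median 9.14). Selp, the adhesion receptor P-selectin of platelets and endothelium (chromosome 1, 164115264 to 164150026, plus strand), was at 0.346 RPKM in wt, 0.148 and 0.112 RPKM in scr and 26.9, 41.2 and 68.7 RPKM in knockdown. Ptgs1, the constitutive cyclooxygenase of prostaglandin synthesis (chromosome 2, 36230426 to 36252271, plus strand), was at 0.442 RPKM in wt, 0.119 and 0.257 RPKM in scr and 7.98, 13.4 and 89.0 RPKM in knockdown. Knockdown 50-5 stood apart for Ptgs1, at 11.2 times the level of knockdown 25-3, the widest spread of any of the 53 genes. Plac8, a small cysteine-rich protein first described in placenta (chromosome 5, 100553726 to 100572205, minus strand), was at 1.08 RPKM in wt, 0 and 0.146 RPKM in scr and 25.3, 24.7 and 24.3 RPKM in knockdown, so its 3 knockdown levels lay within 1.04-fold. Pdcd1lg2, a ligand of the T cell checkpoint receptor PD-1 (chromosome 19, 29410919 to 29472927, plus strand), was at 0.472 RPKM in wt, 0.279 and 0.0617 RPKM in scr and 15.6, 20.7 and 25.7 RPKM in knockdown. Slfn2, a Schlafen gene of T cells and macrophages (chromosome 11, 83065112 to 83070678, plus strand), was at 0.0691 RPKM in wt, 0.0408 and 0.169 RPKM in scr and 14.3, 6.92 and 12.8 RPKM in knockdown, and reads it shares with other Schlafen genes make its level uncertain.

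Zbtb32, a zinc finger repressor of lymphocytes (chromosome 7, 30589681 to 30598909, minus strand), was at 0.221 RPKM in wt, 0.285 and 0.276 RPKM in scr and 15.1, 9.16 and 6.90 RPKM in knockdown. Here wt was below both scr libraries, as it was for Nrcam and Slc38a1 alone among the other genes. Il23a, the subunit that marks interleukin 23 (chromosome 10, 128296140 to 128298084, minus strand), was at 0.367 RPKM in wt, 0.125 and 0.103 RPKM in scr and 3.19, 4.33 and 6.69 RPKM in knockdown. Oasl1, of the oligoadenylate synthetase family (chromosome 5, 114923240 to 114937911, plus strand), was at 0.0523 RPKM in wt, 0.0154 and 0.0797 RPKM in scr and 2.09, 3.00 and 2.18 RPKM in knockdown. The remaining blood cell genes were Blnk, an adaptor of the B cell receptor (chromosome 19; 2.63, 8.11 and 12.9 RPKM in knockdown), Itgb3, the integrin beta 3 chain of platelets (chromosome 11; 3.31, 3.83 and 5.00 RPKM), Fcrl1, a B cell surface protein (chromosome 3; 3.27, 3.55 and 5.20 RPKM), and Klra18, a Ly49 receptor of natural killer cells (chromosome 6; 3.11, 4.63 and 2.43 RPKM). Klra18 overlaps 4 other Ly49 genes on its own strand and is uncertain. Knockdown 50-5 was the highest library for 7 of the 12 genes.

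Most defining markers of blood cells and vessels were low in the same libraries. Of 10 leukocyte markers, 7 were under 0.3 RPKM in all 6 libraries and Cd3e was at 0, while their summed level, carried in knockdown mostly by Csf1r (2.26, 2.33 and 4.27 RPKM), was 1.08 RPKM in wt, 1.54 and 0.738 RPKM in scr and 3.09 to 5.12 RPKM in knockdown. Of 9 endothelial and platelet markers, 7 were under 0.3 RPKM in all 6 libraries, and the sum, mostly Pecam1 in wt (2.85 RPKM), was 3.33 RPKM in wt, 0.632 to 0.785 RPKM in scr and 0.666 to 0.969 RPKM in knockdown. Csf1r was the only gene of either list that was tested, and it was not called. The part of the higher leukocyte sum in the levels of the blood cell genes was not tested.

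Secreted and matrix proteins, grouped here with the membrane-anchored protease Tmprss11f, made up 8 genes, with mean knockdown levels of 3.98 to 67.3 RPKM. Tff2, the second trefoil peptide among them (chromosome 17, 31141062 to 31144282, minus strand), was at 0.470 RPKM in wt, 0.178 and 0 RPKM in scr and 8.26, 2.01 and 4.39 RPKM in knockdown, which put knockdown 50-2 only just over the limit. Glrp1 (chromosome 1, 88499871 to 88510066, minus strand) was at 0.353 RPKM in wt, 0.0868 and 0.143 RPKM in scr and 21.8, 17.0 and 24.5 RPKM in knockdown. Htra1, a secreted serine protease that acts on matrix proteins (chromosome 7, 130936203 to 130985658, plus strand), was at 0.715 RPKM in wt, 0.167 and 0.258 RPKM in scr and 8.12, 8.52 and 12.6 RPKM in knockdown. Tff2 spread over more than 4-fold between knockdown libraries and Htra1 over less than 2-fold. Sema3g, a secreted semaphorin (chromosome 14, 31217873 to 31229511, plus strand), was at 1.18 RPKM in wt, 0.0277 and 0.181 RPKM in scr and 12.6, 3.69 and 5.44 RPKM in knockdown. It had 113 counts in wt, the most of any of the 53 genes. Tmprss11f, a serine protease of epithelia held in the membrane (chromosome 5, 86521226 to 86632424, minus strand), was at 0.377 RPKM in wt, 0.0715 and 0.0657 RPKM in scr and 2.73, 4.89 and 4.31 RPKM in knockdown. Col6a1, a chain of collagen VI (chromosome 10), was at 9.12, 11.2 and 9.23 RPKM in knockdown, and Pnliprp2, a lipase of the pancreas (chromosome 19), at 7.79, 11.2 and 9.52 RPKM. Wt reached 0.3 RPKM in 6 of these 8 genes. Among 7 markers of gastric and intestinal epithelium, 6 were under 0.3 RPKM in every library, and Vil1 carried a sum of 43.0 RPKM in wt, 42.5 and 20.9 RPKM in scr and 51.1 to 67.3 RPKM in knockdown.

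Genes best known from neurons numbered 9. Beside Pnma5, Nrcam, an adhesion molecule of axons (chromosome 12, 44328885 to 44601846, plus strand), was at 0.0506 RPKM in wt, 0.0851 and 0.0509 RPKM in scr and 5.75, 10.3 and 18.4 RPKM in knockdown. Slc6a13, a carrier of the transmitter GABA that liver also uses (chromosome 6, 121300288 to 121337721, plus strand), was at 0.497 RPKM in wt, 0.236 and 0 RPKM in scr and 13.4, 14.3 and 13.6 RPKM in knockdown. Tmem59l, a membrane protein of brain (chromosome 8, 70483855 to 70487348, minus strand), was at 0.617 RPKM in wt, 0.0910 and 0.0705 RPKM in scr and 7.17, 7.75 and 2.65 RPKM in knockdown. Slc6a13 held nearly the same level in all 3 knockdown libraries, Nrcam was lowest in 25-3 and Tmem59l lowest in 50-5. Lmx1a, a homeodomain factor of midbrain dopamine neurons (chromosome 1, 167689558 to 167848733, plus strand), was at 0.368 RPKM in wt, 0.173 and 0.0631 RPKM in scr and 2.58, 5.39 and 3.36 RPKM in knockdown. The others in knockdown were Tafa5, a secreted chemokine-like protein of brain (chromosome 15; 3.65, 6.29 and 5.46 RPKM), Car8, a carbonic anhydrase relative without enzyme activity (chromosome 4; 3.303, 3.35 and 6.69 RPKM), Eno2, the neuronal enolase (chromosome 6; 3.61, 3.19 and 5.87 RPKM), and Slc18b1, a vesicular polyamine carrier (chromosome 10; 2.91, 2.69 and 3.54 RPKM). Of 8 neuron markers, 7 were under 0.3 RPKM in all 6 libraries and Stmn2 was at 0. Syt1, a synaptic vesicle protein, had no count in scr and was at 0.567, 0.185 and 0.757 RPKM in knockdown. The sum of the list was 0.0312 RPKM in wt, 0.144 and 0.233 RPKM in scr and 0.342 to 0.834 RPKM in knockdown.

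Metabolic enzymes and carriers were another 9 genes, with mean knockdown levels of 3.00 to 22.2 RPKM. Renbp, an epimerase of N-acetylglucosamine that also binds renin (chromosome X, 73922121 to 73930850, minus strand), was at 0.433 RPKM in wt, 0.0479 and 0.0248 RPKM in scr and 19.6, 22.2 and 24.6 RPKM in knockdown. Gstk1, the kappa class glutathione transferase (chromosome 6, 42245935 to 42250441, plus strand), was at 0.0825 RPKM in wt, 0 and 0 RPKM in scr and 9.60, 12.1 and 13.8 RPKM in knockdown. Both were lowest in knockdown 25-3 and highest in 50-5. A pair of genes handles retinol. Rbp2, the retinol-binding protein of the intestine (chromosome 9, 98490537 to 98509771, plus strand), was at 0.685 RPKM in wt, 0.253 and 0 RPKM in scr and 6.17, 10.3 and 8.41 RPKM in knockdown. Adh7, an alcohol dehydrogenase that oxidises retinol (chromosome 3), was at 0.203 RPKM in wt, 0.0490 and 0.118 RPKM in scr and 6.12, 5.73 and 4.84 RPKM in knockdown. Neither gene fell under 4 RPKM in a knockdown library. Hao1, the glycolate oxidase of liver peroxisomes (chromosome 2, 134497361 to 134554352, minus strand), was at 0.416 RPKM in wt, 0.151 and 0.225 RPKM in scr and 2.09, 7.08 and 8.98 RPKM in knockdown, so knockdown 25-3 was only just inside the limit. Dhdh, which oxidises dihydrodiols (chromosome 7, 45473563 to 45488805, minus strand), was at 0.363 RPKM in wt, 0 and 0.128 RPKM in scr and 2.72, 3.98 and 2.29 RPKM in knockdown. Dctd, the deaminase that feeds thymidylate synthesis (chromosome 8), was at 5.67, 5.96 and 4.77 RPKM in knockdown. The sodium-coupled amino acid transporters Slc38a1 and Slc38a4 complete this set.

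Shroom4 and Shroom1, which bind actin and shape epithelial cells, were among 7 genes of cell shape, membranes and signalling, and wt was under 0.3 RPKM in all 7. Shroom4 (chromosome X, 6400032 to 6637454, plus strand) was at 0.0440 RPKM in wt, 0.0117 and 0.00403 RPKM in scr and 11.6, 11.6 and 12.1 RPKM in knockdown, from 1 to 10 counts in the controls and 3184 to 3501 in knockdown. Its 3 knockdown levels were nearly equal. Other knockdown levels were 2.91, 2.34 and 4.64 RPKM for Shroom1 (chromosome 11), 2.71, 3.43 and 7.19 RPKM for Ildr2, a protein of tricellular junctions (chromosome 1), 2.20, 3.89 and 3.65 RPKM for Plekhb2, a protein of recycling endosomes (chromosome 1), 4.38, 4.42 and 7.23 RPKM for Rgs22, of the regulators of G protein signalling (chromosome 15), and 3.14, 3.03 and 2.35 RPKM for Tmem88, an inhibitor of Wnt signalling (chromosome 11). A further pair of genes is known from the reproductive tract and germ line. Rhox2h, a homeobox gene of the X-linked Rhox cluster, was at 7.97, 9.58 and 11.4 RPKM in knockdown and has near-identical copies, which makes it uncertain, and Epp13, an epididymal protein (chromosome 7), was at 10.8, 9.32 and 6.01 RPKM.

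The 6 noncoding RNAs and pseudogenes by RefSeq included Eprn, at a far higher level than the rest. C230014O12Rik (chromosome 2, 34018289 to 34107735, minus strand) was at 0.574 RPKM in wt, 0.216 and 0.0525 RPKM in scr and 2.62, 4.20 and 3.33 RPKM in knockdown, and its parental level was 17.0% of the knockdown mean, the largest share of the 53 genes. Kank4os, transcribed opposite Kank4 on chromosome 4, was at 4.22, 4.56 and 4.67 RPKM in knockdown, while Kank4 had 0 counts in every library. Gm4371 (chromosome 15, 96182800 to 96203470, plus strand) was at 0.214 RPKM in wt, 0.0844 and 0.0654 RPKM in scr and 3.97, 5.13 and 6.25 RPKM in knockdown. Gm2381 (chromosome 7) was at 5.30, 5.06 and 4.07 RPKM and Serpina3h (chromosome 12) at 2.67, 4.06 and 9.30 RPKM in knockdown, and both have near-identical relatives that make their levels uncertain. The GENCODE annotation lists Gm2381 as protein-coding. In all, 9 of the 53 genes lie opposite an annotated gene on the other strand, among them Tff1, Selp, Shroom4, Adh7, Gm4371, Kank4os, Dhdh and Tmem88. The sources used here do not state a strand setting for the counting, so reads counted for these genes may include some from the opposite strand. The annotated partners of Shroom4, Adh7 and Kank4os had 0 counts in every library. That of Gm4371 had 2 and 2 counts in scr and 98, 72 and 71 in knockdown. That of Tmem88 had 1517 and 1166 counts in scr and 1230, 1329 and 1250 in knockdown.

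Spread among knockdown libraries was wider for these genes than for others. The ratio of the highest to the lowest knockdown level had a median of 1.67 and was under 2 in 36 of the 53 genes (67.9%), against a median of 1.22 and 96.5% among the other 9476 genes over 2 RPKM in all 3 knockdown libraries. The comparison was not matched for level. Knockdown 50-5 was the highest library for 25 genes (47.2%, against 35.4% of the other genes), 50-2 for 16 (30.2% against 30.7%) and 25-3 for 12 (22.6% against 33.9%). Knockdown 25-3 was the lowest library for 32 of the 53 genes.

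More genes crossed 2 RPKM in some knockdown libraries than in all. Of genes under 0.3 RPKM in both scr libraries, 71 were over 2 RPKM in knockdown 25-3, 80 in 50-2, 97 in 50-5 and 117 in at least 1 of them, so the selected 54 made up 76.1%, 67.5% and 55.7% of each library's own set. A single library accounted for 4 genes in 25-3, 13 in 50-2 and 23 in 50-5. Just inside the limits, Zbtb32, Pdcd1lg2 and Htra1 had the highest scr values (0.285, 0.279 and 0.258 RPKM), and Tff2, Oasl1 and Hao1 the lowest knockdown values (2.01, 2.09 and 2.09 RPKM). Just outside, Ppargc1a, Adgra2 and Ephx2 failed on scr 25-2 alone at 0.304, 0.326 and 0.328 RPKM. Tom1l1, Col7a1 and 2310008N11Rik failed on 1 knockdown library at 2.00, 1.99 and 1.92 RPKM. In all, 96 genes missed the selection by 1 limit in 1 library, 73 of them on a scr value.

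The parental library was not used in the selection. There, 31 of the 53 genes were under 0.3 RPKM (58.5%), 22 were between 0.3 and 2 RPKM, and none was over 2 RPKM. Among all 12693 genes low in scr the share under 0.3 RPKM was 98.4%, and among the 63 low genes that crossed 2 RPKM in some but not all knockdown libraries it was 77.8%. Every one of the 53 genes was lower in wt than in all 3 knockdown libraries, and wt was a median of 1.79% of the knockdown mean (range 0.374% to 17.0%).

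Yet wt was mostly above scr. Its median over the 53 genes was 0.214 RPKM, against 0.0479 and 0.0425 RPKM in scr 25-2 and 50-1, and wt exceeded both scr libraries in 45 genes (84.9%). The same held for 36 of the 63 genes that crossed 2 RPKM in only some knockdown libraries (57.1%), and for 39.5% of the 5006 low genes with a count in wt or scr. Part of that difference is set by selecting genes for low scr values, and with 1 parental library it has no replicate check. Counts in wt ran from 1 to 113 (median 11), with 27 genes over 10 counts and 11 genes at 3 or fewer. The 22 genes at 0.3 RPKM or more in wt include 6 of the 8 genes grouped as secreted and matrix proteins with Tmprss11f, 5 of 12 blood cell genes, 5 of 9 metabolic genes and 4 of 9 neuronal genes, and none of the 7 genes of cell shape, membranes and signalling.

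**Figure D2:**
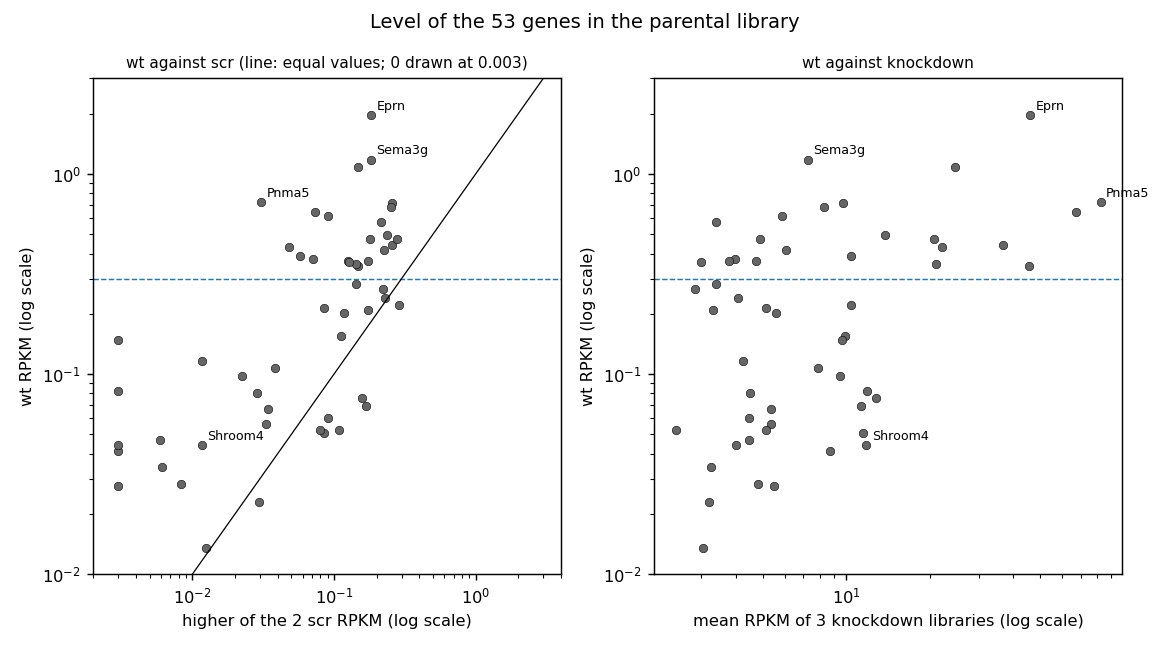
Parental (wt) RPKM of the 53 genes against the higher of their scr values, left, and against their knockdown mean, right, 1 point per gene on log axes, with a dashed line at 0.3 RPKM and a solid line of equal values. In the left panel 45 points lie above the line of equal values, and no wt value reaches 2 RPKM.

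The genes lay on 18 chromosomes, with at most 5 on any of them (chromosomes 1, 7 and 15). Chromosome 15 held 5.30 of them per 1000 annotated genes, the highest density, and the X chromosome held 4 (7.55%, against 4.23% of all genes in the table). Of the 53 genes, 7 lay within 1 Mb of another, in 3 places. Tff2 and Tff1 are 17.1 kb apart on chromosome 17, in the trefoil factor cluster. Gm4371, Slc38a1 and Slc38a4 follow each other on chromosome 15, at distances of 368 kb and 352 kb, and Pnma5 and Renbp are 885 kb apart on the X chromosome.

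Genes between these pairs included some called higher, some called lower and some not called. Slc38a1 (chromosome 15, 96571418 to 96642913, minus strand) was at 0.0229 RPKM in wt, 0.0283 and 0.0293 RPKM in scr and 3.83, 2.90 and 2.81 RPKM in knockdown, and Slc38a4 (chromosome 15, 96994823 to 97055956, minus strand) at 0.387 RPKM in wt, 0.0571 and 0.0169 RPKM in scr and 13.2, 5.67 and 12.2 RPKM in knockdown. Between them lies only Slc38a2, a transporter of the same family, which was at 175 RPKM in wt, 320 and 490 RPKM in scr and 384, 240 and 287 RPKM in knockdown and was not called (log2 fold change -0.43). Between Gm4371 and Slc38a1, Arid2, a subunit of the PBAF chromatin remodelling complex, was called higher by a log2 fold change of 0.73. Of 32 genes between Pnma5 and Renbp, 11 were tested, 19 were under 0.3 RPKM in all 5 scr and knockdown libraries, and 2 were called, Slc6a8, the creatine transporter, higher (1.72) and Ssr4, of the translocon-associated complex, lower (-1.32). Low and expressed genes thus stand side by side along these stretches.

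**Figure D3:**
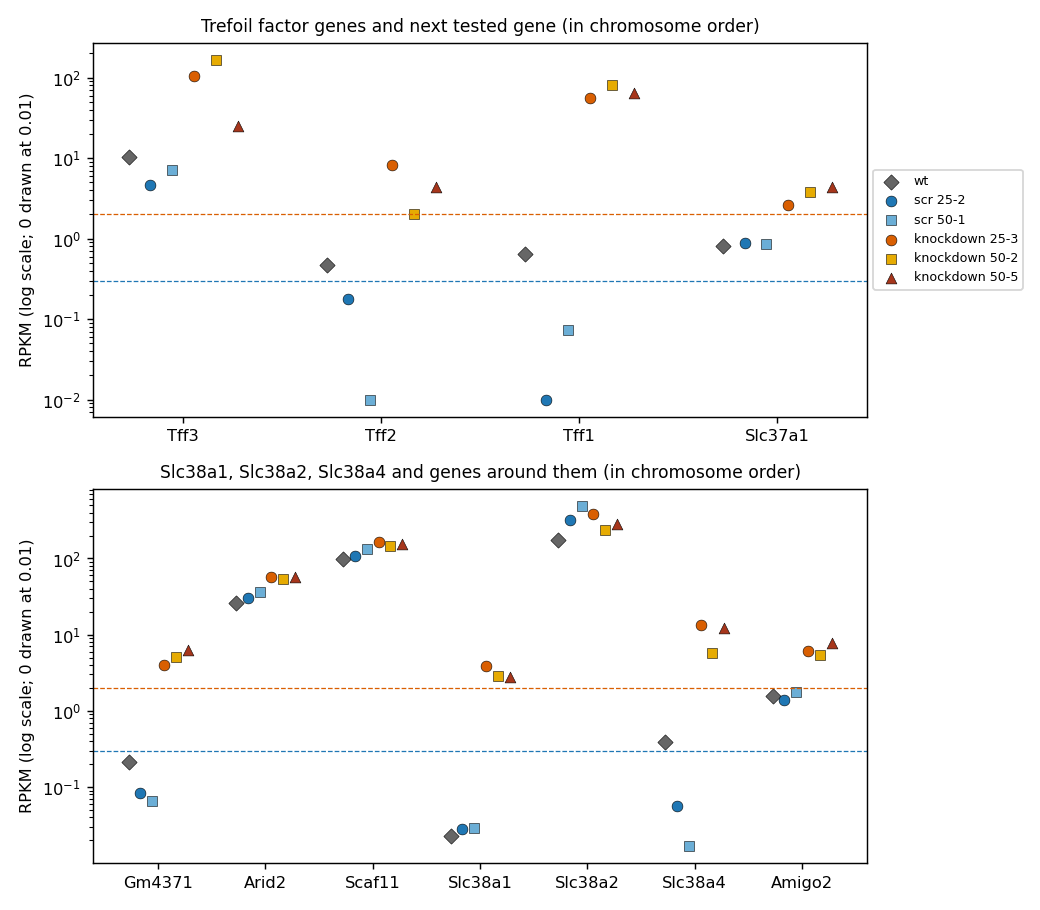
RPKM (log axis) of genes of the trefoil factor cluster, top, and of the Slc38 stretch, bottom, 1 point per library, in chromosome order, for selected genes and some genes between or next to them. Tff3, Slc37a1, Arid2 and Amigo2 were also called higher, whereas Slc38a2 between Slc38a1 and Slc38a4 was not called.

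For 51 of the 53 genes, at least 1 tested gene outside the selection lay within 500 kb, taking the nearest on each side, 88 in all. Of these nearest neighbours 13 were called higher (14.8%, against 5.40% of all genes tested) and 1 lower (1.14%, against 5.23%), with a median log2 fold change of 0.12 against -0.01 for all genes tested. Neighbours that reached the expression limit only through knockdown are likely to be called for that reason, and 5 of the 13 were at or below 1 RPKM in both scr libraries. Among the 80 neighbours over 1 RPKM in at least 1 scr library, 8 were called higher (10.0%, against 3.62% of such genes overall).

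Tff3, the trefoil peptide of intestinal goblet cells 11.5 kb from Tff2, was at 10.5 RPKM in wt, 4.67 and 7.13 RPKM in scr and 104, 167 and 25.01 RPKM in knockdown (log2 fold change 4.05, SE 0.88, adjusted p = 0.0433, edgeR). Its call was lost when either scr library or knockdown 25-3 or 50-2 was left out, and with the 25 or 50 of the labels as a term. Vnn1, the pantetheinase vanin 1 near Slc18b1, was at 2.00 RPKM in wt, 0.337 and 0.160 RPKM in scr and 3.24, 2.55 and 6.59 RPKM in knockdown (log2 fold change 4.03, SE 0.64, adjusted p = 0.0203, edgeR). Its call was lost with wt added to scr (adjusted p = 0.120, edgeR) and without knockdown 25-3 or 50-2. Slfn10-ps, a pseudogene near Slfn2, was at 0.0310 RPKM in wt, 0.0550 and 0.0852 RPKM in scr and 1.80, 1.04 and 1.30 RPKM in knockdown. Other calls with the largest changes were Klra5 near Klra18 (log2 fold change 3.15), Slc37a1, a sugar phosphate carrier near Tff1 (2.03), Amigo2, an adhesion protein 188 kb from Slc38a4 (2.02), and Tm2d1 near Kank4os (1.60). Serpina3i, next to Serpina3h, had no count in wt and scr 25-2 and was at 0.0160 RPKM in scr 50-1 and 0.346, 0.748 and 1.43 RPKM in knockdown. The only neighbour called lower was Pan2, a poly(A) nuclease 5.25 kb from Il23a (-1.10), named because it stands alone. Of these called neighbours Slfn10-ps kept its call without knockdown 50-2, whereas Tff3, Vnn1, Klra5, Slc37a1, Amigo2, Tm2d1, Serpina3i and Pan2 lost theirs.

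Relatives in the same gene families gave a mixed picture. The 32 families, 30 of them with at least 1 of the 53 genes, held 161 relatives outside the selection, of which 102 were under 0.3 RPKM in all 6 libraries and 46 were tested. Of the 46, 11 were called higher (23.9%, against 5.40% overall) and 6 lower (13.0%, against 5.23%), with a median log2 fold change of 0.01. Again 5 of the 11 were at or below 1 RPKM in both scr libraries, and of the 40 relatives over 1 RPKM in scr 6 were higher and 6 lower. Families were drawn up with earlier results of these data known, so the counts are a description.

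In the retinol families, Stra6, the cell surface receptor that takes up retinol, rose from 66.7 and 64.7 RPKM in scr to 235, 243 and 370 RPKM in knockdown (log2 fold change 2.09, SE 0.26, adjusted p = 0.0117, edgeR). Aldh1a1, which makes retinoic acid, fell from 643 and 873 to 230, 187 and 177 RPKM (log2 fold change -1.95, SE 0.19, adjusted p = 0.00777, edgeR). Shroom3, which drives apical constriction, rose from 0.370 and 0.396 to 6.20, 6.20 and 10.3 RPKM (log2 fold change 4.29, SE 0.33, adjusted p = 0.00585, edgeR), and its scr values were just too high for selection. Shroom2 was called lower (log2 fold change -0.88), a call kept in 4 of 11 alternatives. Runx1, a factor of blood formation in a listed family with none of the 53, had 1 count over both scr libraries and was at 1.81, 2.13 and 4.18 RPKM in knockdown, which missed the limit in 25-3.

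Plb1, a phospholipase of the intestine listed with Pnliprp2, was at 0.223 RPKM in wt, 0.230 and 0.198 RPKM in scr and 5.03, 6.83 and 1.29 RPKM in knockdown (log2 fold change 4.33, SE 0.81, adjusted p = 0.0304, edgeR), with knockdown 50-5 below the others, and its call was kept in 5 of 11 alternatives. Itgav, the integrin alpha chain that pairs with Itgb3, was higher (log2 fold change 1.23), and Itgb5, another beta chain for it, lower (log2 fold change -1.18). Against the direction of Oasl1, Oas1c (-2.89) and Oas1b (-2.15) were lower, as was Slfn9 (-1.08) against Slfn2. Htra2, a mitochondrial protease related to Htra1, was higher (1.19). None of 5 tested Slc38 relatives was called, nor was the 1 tested relative of Car8, and no relative of Pnma5 reached the level needed for testing. A missed threshold does not show that these relatives held their level. Of the 28 relatives and neighbours called, 23 stayed called without scr 25-2 and 23 without scr 50-1, 9 without knockdown 25-3, 13 without 50-5 and 4, among them Runx1, Shroom3 and Slfn10-ps, without 50-2.

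Markers of the hepatoma itself were expressed, with 9 of 11 over 1 RPKM in at least 1 library, although Serpina1a was at 0 in all. Their summed level was 5937 RPKM in wt, 3389 and 4657 RPKM in scr and 1939, 1869 and 926 RPKM in knockdown 25-3, 50-2 and 50-5, lowest in the library where 25 of the 53 genes were highest. Alb, serum albumin, was at 2424 RPKM in wt, 1877 and 2804 RPKM in scr and 336, 62.7 and 20.9 RPKM in knockdown, and Afp, alpha-fetoprotein, at 1430 RPKM in wt, 302 and 533 RPKM in scr and 212, 50.9 and 33.2 RPKM in knockdown. Other markers of the list had higher values in knockdown, as did Krt18, a keratin of simple epithelia, at 408 and 535 RPKM in scr and 821, 1160 and 632 RPKM in knockdown, and Apob, apolipoprotein B, at 3.00 and 1.07 RPKM in scr and 52.2, 37.8 and 4.37 RPKM in knockdown. Hnf4a, a hepatocyte transcription factor, was at 33.9 and 11.04 RPKM in scr and 65.5, 65.4 and 29.6 RPKM in knockdown. None of the markers of this list that were tested was called. Of 4 fibroblast markers, 3 were under 0.3 RPKM in all 6 libraries. The sum of this list was 1.99 RPKM in wt, 0.348 and 0.244 RPKM in scr and 1.75 to 2.93 RPKM in knockdown. It was mostly Pdgfra, at 1.93 RPKM in wt, 0.308 and 0.167 RPKM in scr and 2.70, 1.90 and 1.58 RPKM in knockdown. Pdgfra was called higher. Whether these marker levels have a part in the levels of the 53 genes was not tested.

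RefSeq promoter windows were given for 38 of the 53 genes, and in all 38 the RefSeq start matched the start in the deposited table. CpG content was described by the ratio of observed to expected CG dinucleotides, with 0.6 or more called rich. Of the 38, 11 were rich in CpG (28.9%): Tafa5, Nrcam, Htra1, Ildr2, C230014O12Rik, Tmem59l, Slc18b1, Plekhb2, Shroom4, Eno2 and Dctd. That share was 47.9% of all 18509 promoters, 79.6% of the other 7541 genes over 2 RPKM in all 3 knockdown libraries, and 20.9% of the other 8994 genes under 0.3 RPKM in both scr libraries. The median ratio was 0.333 for the 38 genes, 0.802 for the expressed genes and 0.265 for the low ones. By this measure the 38 windows sat closer to those of other genes low in scr than to those of expressed genes. All 38 genes met both limits by selection, and the comparison was not matched for level.

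**Figure D4:**
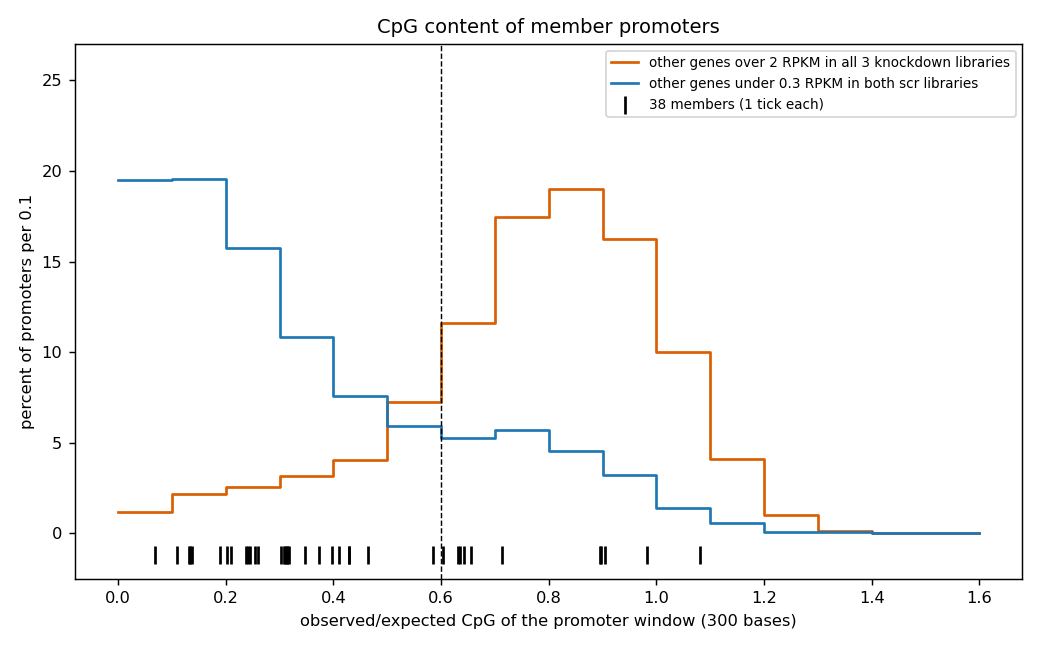
Observed/expected CpG of promoter windows of 300 bases: ticks for 38 of the selected genes, and outlines giving the percent of promoters in each interval of 0.1 for other genes expressed in knockdown (orange) and other genes low in scr (blue), with a dashed line at 0.6. Of the ticks, 11 lie at or right of 0.6, where 79.6% of expressed and 20.9% of low genes lie.

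Motifs were searched as letters on both strands. The TATA box letters TATAAA occurred in 5 of 38 windows (13.2%), against 13.0% of all promoters, 19.2% of other low genes and 6.59% of other expressed genes. These were the windows of Rbp2, Adh7, Fcrl1, Eno2 and C230014O12Rik. Only Fcrl1 and Rbp2 held the letters on the strand of the gene, at -193 and -15 relative to the annotated start. The nuclear receptor letters AGGTCA occurred in 8 windows (21.1%), among them Pnma5, Rbp2, Selp and Gstk1. That share was 14.4% of all promoters, 16.9% of other low genes and 11.3% of other expressed genes. A pair of GAAA letters spaced by 2 bases, as in interferon response elements, occurred in 1 window, that of Pnma5 (2.63% against 3.39%). A match of letters is a description of the window and does not show a bound site.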

How the data were processed

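Ribosome-depleted total RNA of Hepa1-6 cells was sequenced from 6 libraries (1 wt, 2 scr, 3 knockdown), with 25586301 to 33119710 counts each. The authors used TopHat2 for alignment to mm10 and HTSeq for counting over RefSeq genes, and deposited the raw counts in 1 table. A second deposited table holds RPKM that the authors scaled with TMM in edgeR. HTSeq is given as version 0.6.1p1 in the submitters' processing notes, whereas the study's text gives a different version. A strand setting for counting is not given in the sources used here.

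Genes with RPKM under 0.3 in both scr libraries and over 2 in all 3 knockdown libraries were selected. Members, families, markers and groups by role were chosen with earlier results of these data known, and the role groups after the members' values were seen. Of the 54 genes, 1 is not reported here, and 1 more enters counts and sums only, as do some neighbours. Values in every library were given for the 15 genes with the highest knockdown means, genes within 1 Mb of another, genes at 0.3 RPKM or more in wt and genes next to a limit. Called relatives (up to 12) and neighbours (up to 10) were named by largest absolute fold, and further ones named after their values were seen.

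Counts of 2 scr and 3 knockdown libraries were tested with edgeR 4.0.16 (quasi-likelihood, TMM, R 4.3.3) over 11577 genes with RPKM over 1 in at least 1 library, with Benjamini-Hochberg adjustment, an adjusted p below 0.05 and a fold of at least 1.5. The fit was tested on simulated data. Neighbours were the nearest tested genes within 500 kb on each side. Alternatives were DESeq2 1.42.0, other size factors, no filter, limma 3.58.1 on log2(RPKM + 1), added terms or controls, each library left out, and other limits. Promoter windows came from RefSeq tables of GRCm38.p6, which held 38 of 53 genes. Count floors cover counting error only.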

Additional observations from a re-analysis of the deposited data

How the results depend on the processing

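The selection gave 54 genes, 27 at a scr limit of 0.1 RPKM, 96 and 24 at knockdown limits of 1 and 5 RPKM, and 32 where wt also had to be under 0.3 RPKM, an alternative chosen after seeing the data. It gave 57 to 103 genes with 1 library left out, the highest without scr 25-2, and 53 or 54 with other library scalings. In wt, 20 of the 53 genes were under 0.1 RPKM and 50 under 1 RPKM, against 31 under 0.3 RPKM. With a CpG limit of 0.75, 5 promoters were rich, against 11.

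The edgeR test called 1230 genes, DESeq2 2322, and edgeR 807 with the 25 or 50 of the labels as a replicate block, 346 with knockdown 25-3 and 50-2 only (the fit without 50-5), and 131 to 2273 with 1 library left out. Counts moved by over 1.5 times without scr 25-2 (2273) and without knockdown 25-3 (259), 50-2 (131) or 50-5 (346). Relatives called numbered 17, 9 without knockdown 50-5, 10 with that block, and 2 to 18 over omissions, with 7 without 25-3 and 2 without 50-2. Neighbours called numbered 14, 26 by DESeq2, 5 without knockdown 50-5, and 2 to 24 over omissions, with 24 without scr 25-2, 3 without 25-3 and 2 without 50-2. The labels do not say that 25 or 50 marks paired libraries. Under the block Tff3, Tm2d1, Itgb5, Oas1b, Plb1, Plekha1, Runx2, Shroom2 and Slfn9 lost their call. The cause was not tested, and smaller fits have fewer libraries. Of the 28 relatives and neighbours called, none changed sign, and Runx1, Shroom3 and Slfn10-ps kept their call under all 11 alternatives, whereas 4 kept it without knockdown 50-2. Depth limits the controls, where 21 of the 53 genes had no count in at least 1 scr library.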
